A study of Mus musculus with 58 samples.

Results

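Toll-like receptor genes, a co-receptor gene and an adaptor gene were followed in mouse microglia. They are Tlr1, Tlr2, Tlr3, Tlr4, Tlr6, Tlr7, Tlr9 and Tlr13, the co-receptor Cd14 and the adaptor Myd88, which are 10 of the 47643 genes in the count tables and hold 8 of the 12 Tlr genes listed there. They were chosen by name, and each symbol matched 1 Ensembl identifier, with positions given on GRCm38. The study asked how microglia respond to tau and to a change in NF-κB activity. Its 34 microglia libraries fall into 8 groups and 4 comparisons, all counted as reads near the 3′ ends of transcripts.

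Toll-like receptors are membrane proteins that recognize molecules of microbes and of damaged cells. TLR1, TLR2, TLR4 and TLR6 act at the cell surface, TLR3, TLR7, TLR9 and TLR13 act in endosomes on nucleic acids, and CD14 hands lipopolysaccharide and other ligands to the receptors. All of these receptors but TLR3 signal through the adaptor MyD88. TLR3, and TLR4 in addition, signal through TRIF (Ticam1). Both routes reach the kinase IKKβ (Ikbkb), which releases NF-κB to the nucleus. Microglia, the resident macrophages of the brain, are known for their expression of these receptors.

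In the first comparison, 4 libraries of wild-type primary microglia given 2 µg/ml of full-length tau fibrils for 24 h were set against 4 of microglia given vehicle. In the second, CD11b beads were used to isolate microglia from 4 male mice of the PS19 line, a carrier of human tau with the P301S mutation, and these were set against those from 4 male non-transgenic (NTG) mice. The PS19 mice were 10.98 months old, as were 2 of the NTG mice, and the other 2 NTG mice were 11.18 months old. In the third, 5 libraries of cultures with constitutively active IKKβ (IkbkbCA, genotype Cx3cr1CreERT2/+; IkbkbCA F/F) were compared with 5 of control cultures (IkbkbWT, Cx3cr1+/+; IkbkbCA F/F). In the fourth, 4 libraries of cultures with Ikbkb deleted (Ikbkb-/-, Cx3cr1CreERT2/+; Ikbkb F/F) were compared with 4 of controls (Ikbkb+/+, Cx3cr1+/+; Ikbkb F/F). All 4 of these genotype groups were cultured from newborn pups and received 4-hydroxytamoxifen, which switches the Cre recombinase on. In both, the Cre groups also carry 1 Cx3cr1 allele replaced by CreERT2 and the controls carry none, so this allele and the change in Ikbkb cannot be told apart.

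The libraries held 1672052 to 8349128 counts on genes, and levels are given as CPM, the counts of a gene scaled to a common library total, after TMM normalization over all 34 libraries. Ikbkb lay at 24.6, 24.4, 18.4 and 22.2 CPM in the Ikbkb-/- libraries and at 52.4, 44.7, 53.0 and 55.1 CPM in the Ikbkb+/+ libraries (log2 fold change -1.20, SE 0.12). Reads of Ikbkb thus remained in every Ikbkb-/- library, and their source was not tested. The words "without Ikbkb" name this genotype below. In the IkbkbCA libraries Ikbkb lay at 44.1 to 59.5 CPM against 39.8 to 57.7 CPM in IkbkbWT. This checks nothing if the 3′ end of the transgene is not counted as Ikbkb. Libraries of the IkbkbCA comparison fell into 3 sets, numbers 1 and 2, 3, and 4 and 5 of each group, so they may not be independent cultures and their p-values may then be too small. In the Ikbkb-/- comparison libraries 1 and 2 and libraries 3 and 4 of a group were alike in Ddx3y and Xist, most clearly in Ikbkb+/+, and the same limit holds there. Ddx3y, a Y-linked gene, lay at 154 to 172 CPM in Ikbkb-/- and 35.0 to 68.2 CPM in Ikbkb+/+, and Xist, expressed from the inactive X chromosome, at 5.58 to 10.4 and 239 to 399 CPM. The sex of the pups and the genotype thus cannot be told apart in that comparison, which matters for Tlr7 and Tlr13, 2 genes of the X chromosome. In PS19 library 1, Xist lay at 175 CPM although every mouse is labelled male. Cx3cr1 was lower in both Cre groups, with log2 fold changes of -0.56 and -1.16, and Mapt, the gene of tau, was found in all 34 libraries and was lower with tau fibrils (-0.72, SE 0.14). All 10 microglial markers were detected in every group.

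The promoters of 3 of the genes are shown because Tlr2, Tlr3 and Myd88 were the ones that rose with IkbkbCA and have an entry in the RefSeq promoter table (GRCm38.p6). Each run is the 250 bases before the start that RefSeq annotates, 5′ to 3′ on the gene's strand. That start lies inside the span of the GENCODE gene that was counted, so the windows of Tlr3 and Myd88 lie wholly within the gene and that of Tlr2 in part. Capitals mark matches on either strand to GGG and CC with any 5 bases between them, a motif of NF-κB, in Tlr2 and Tlr3, and to GAAA and GAAA with any 2 bases between them, the interferon-stimulated response element (ISRE) bound by interferon regulatory factors, in Myd88.
Tlr2 promoter (chr3:83841609-83841858, minus strand): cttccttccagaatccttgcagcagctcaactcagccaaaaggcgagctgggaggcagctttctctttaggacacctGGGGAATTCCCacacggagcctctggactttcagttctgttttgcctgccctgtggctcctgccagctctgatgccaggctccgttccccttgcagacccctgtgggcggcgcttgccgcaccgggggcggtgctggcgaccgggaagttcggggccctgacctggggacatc
Tlr3 promoter (chr8:45410381-45410630, minus strand): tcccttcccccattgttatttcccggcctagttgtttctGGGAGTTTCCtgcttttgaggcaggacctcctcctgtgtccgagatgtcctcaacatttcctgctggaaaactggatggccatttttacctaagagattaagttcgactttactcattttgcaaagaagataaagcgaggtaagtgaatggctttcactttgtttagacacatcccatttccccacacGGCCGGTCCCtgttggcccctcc
Myd88 promoter (chr9:119340019-119340268, minus strand): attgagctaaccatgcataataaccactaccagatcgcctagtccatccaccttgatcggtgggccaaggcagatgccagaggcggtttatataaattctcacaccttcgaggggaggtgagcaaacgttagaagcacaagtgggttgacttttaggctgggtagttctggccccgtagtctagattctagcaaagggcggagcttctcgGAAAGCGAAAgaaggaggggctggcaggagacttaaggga
In Tlr2, 2 overlapping NF-κB matches lie at 173 to 163 bases before the start. In Tlr3, 1 match lies at 211 to 202 bases and 1 at 23 to 14 bases before it, and the Myd88 window holds no NF-κB match and 1 ISRE match, at 40 to 31 bases. Of 32851 mouse promoter windows of this length, 45.8% hold an NF-κB match and 2.98% an ISRE match. Tlr6 has 2 annotated starts, 1 with an NF-κB match and 1 with 2 overlapping ISRE matches, and the windows of Tlr1, Tlr9 and Tlr13 hold neither motif. A match of letters does not show a bound site. Cd14, Tlr4 and Tlr7 are not shown.

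**Figure D1:**
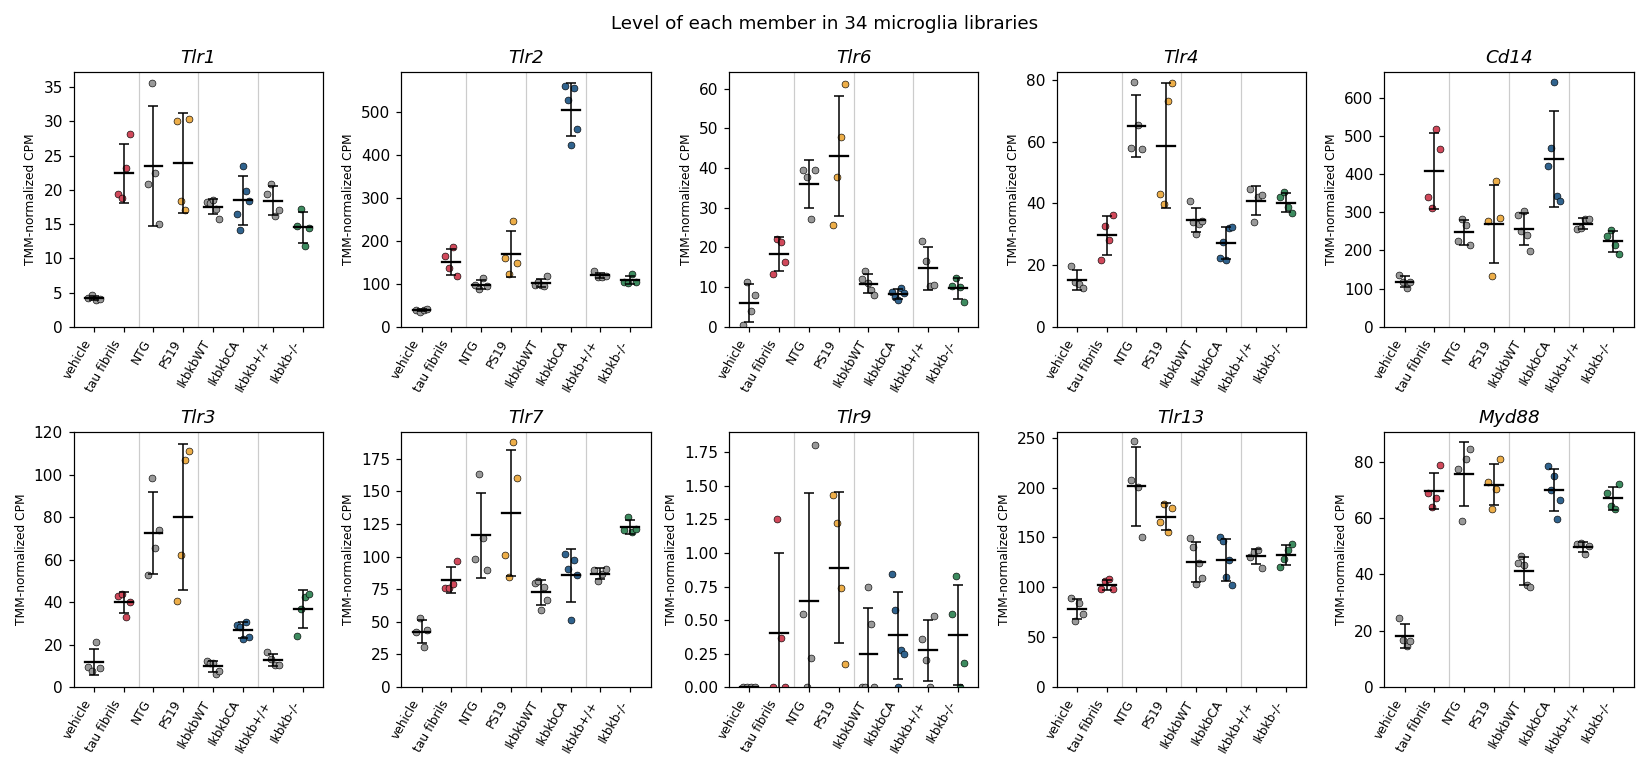
Level of each of the 10 genes in TMM-normalized CPM (vertical axis, from 0) in every library of the 8 groups (horizontal axis), with 1 point per library, a bar at the mean and error bars of 1 SD. The IkbkbCA libraries have 422 to 561 CPM of Tlr2, above every other library, and Tlr9 stays at 1.80 CPM or less in all 34.

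Tau fibrils were followed by higher levels of all 9 of the 10 genes that could be tested. In each of them every fibril library lay above every vehicle library. In this comparison 29.9% of the 10408 genes tested were called in either direction and 14.5% were called higher (edgeR quasi-likelihood test, Benjamini-Hochberg adjusted p under 0.05), and the groups did not overlap in 28.4%. The median log2 fold change of the 9 genes was 1.76, beside -0.011 over all genes tested. Tlr9 had too few counts to be tested.

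Among the surface receptors, Tlr2 (ENSMUSG00000027995, chr3:83836272-83841767), the shared partner in the detection of bacterial lipoproteins, lay at 38.4, 35.2, 39.3 and 42.0 CPM with vehicle and at 164, 136, 185 and 118 CPM with fibrils. Its log2 fold change was 1.95 (SE 0.16, adjusted p = 8.54e-11, edgeR quasi-likelihood test). Tlr1 (ENSMUSG00000044827, chr5:64924679-64933563), which pairs with TLR2 to bind triacylated lipopeptides, rose from 4.27, 4.66, 3.89 and 3.995 CPM to 19.5, 18.8, 23.2 and 28.2 CPM. This was the largest fold change among the 9 genes in this comparison, 2.36 on the log2 scale (SE 0.28, adjusted p = 2.41e-07), from vehicle levels that rest on only 8 to 25 counts per library. Tlr6 (ENSMUSG00000051498, chr5:64952031-64960097), the other partner of TLR2, was at 0.533, 11.4, 3.89 and 7.99 CPM with vehicle, a wide spread on 1 to 61 counts, and at 13.3, 22.2, 21.4 and 16.3 CPM with fibrils. Its log2 fold change was 1.45 (SE 0.38, adjusted p = 0.00424), and the call was lost with DESeq2 (1.58, adjusted p = 0.0565) and with Ddx3y as a covariate (1.31, adjusted p = 0.119). Tlr1 and Tlr6 are neighbours on chromosome 5 and share 13.6% of the 50-base words of Tlr1, none of them in the last 500 bases of an annotated transcript, so reads of these 2 genes could be confused only away from the 3′ end. Tlr4 (ENSMUSG00000039005, chr4:66827584-66930284), the lipopolysaccharide receptor, rose from 19.7, 14.5, 13.8 and 12.5 CPM to 21.7, 32.7, 28.0 and 36.2 CPM, a smaller change of 0.96 (SE 0.22, adjusted p = 0.00162). The lowest fibril value of Tlr4 was close above the highest vehicle value. Cd14 (ENSMUSG00000051439), which delivers lipopolysaccharide to the TLR4 complex, had 135, 117, 101 and 118 CPM with vehicle and 339, 309.9, 519 and 466 CPM with fibrils. The groups were well apart, at a log2 fold change of 1.78 (SE 0.16, adjusted p = 5.89e-10).

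Of the endosomal receptors, Tlr3 (ENSMUSG00000031639, chr8:45395665-45411080), which senses double-stranded RNA, was at 9.60, 7.64, 21.2 and 8.99 CPM with vehicle and 42.8, 44.0, 32.8 and 40.1 CPM with fibrils. The vehicle library 3 stood above the other 3, and the log2 fold change was 1.76 (SE 0.26, adjusted p = 5.72e-06, edgeR quasi-likelihood test) and 2.198 without that library. Its exons share 381 bases with those of an antisense gene, Gm45542, which is not in the tables. Tlr7 (ENSMUSG00000044583, chrX:167304929-167330558), a sensor of single-stranded RNA, went from 42.1, 52.9, 31.1 and 43.9 CPM to 75.6, 76.2, 78.9 and 96.6 CPM, by 0.91 (SE 0.17, adjusted p = 0.000123). Tlr13 (ENSMUSG00000033777, chrX:106143204-106160493), which recognizes bacterial ribosomal RNA in mice, changed least, from 89.0, 66.5, 84.2 and 72.9 CPM to 97.8, 106, 108 and 98.6 CPM. Its log2 fold change of 0.38 (SE 0.14, adjusted p = 0.0365) was no longer called when vehicle library 2 (adjusted p = 0.128), vehicle library 4 (0.0673), fibril library 2 (0.0706) or fibril library 3 (0.0901) was left out, nor with total-count scaling (0.205), without a filter (0.0552) or with Ddx3y as a covariate (0.114). Tlr9 (ENSMUSG00000045322, chr9:106222598-106226883), a sensor of unmethylated CpG DNA, had 0 counts in all 4 vehicle libraries and 0 to 3 counts with fibrils, so a difference was not detectable at this depth. The 0 counts allow up to 3 counts per library, which is 0.646 to 1.79 CPM before TMM normalization. Myd88 (ENSMUSG00000032508, chr9:119335934-119341411) rose from 24.5, 16.8, 14.7 and 16.5 CPM to 68.9, 64.1, 67.1 and 78.7 CPM, with a log2 fold change of 1.94 (SE 0.19, adjusted p = 3.94e-09). Its exons share 290 bases with those of Acaa1a on the opposite strand.

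Markers of cell types moved with the treatment as well. The summed level of 10 microglial markers was 10556 to 12082 CPM with fibrils and 4515 to 5830 CPM with vehicle, and 5 of 9 tested markers were called higher and 0 lower, with a median log2 fold change of 1.08. Of the markers tested, 6 of 8 for neurons, 6 of 9 for astrocytes and 4 of 8 for oligodendrocytes were lower, 1 of 8 for oligodendrocytes was higher, and 2 of 4 for border-associated macrophages were higher. Tlr2, Tlr1, Cd14, Myd88, Tlr3 and Tlr6 had larger fold changes than the microglial median, and Tlr4, Tlr7 and Tlr13 had smaller ones. In bulk RNA, more microglia and more of a transcript per microglial cell cannot be told apart. Reads outside genes were 16.3% to 22.2% of uniquely mapped reads with fibrils and 23.3% to 29.1% with vehicle, so the groups do not overlap in this share. With it as a covariate 5 of the 9 genes were still called (share of all genes called not given). The other 4 were Tlr4 (1.01, adjusted p = 0.112), Tlr7 (0.83, adjusted p = 0.0684), Tlr6 (1.10, adjusted p = 0.355) and Tlr13 (0.36, adjusted p = 0.411). With total-count scaling the median of all genes tested shifted to -0.16.

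**Figure D2:**
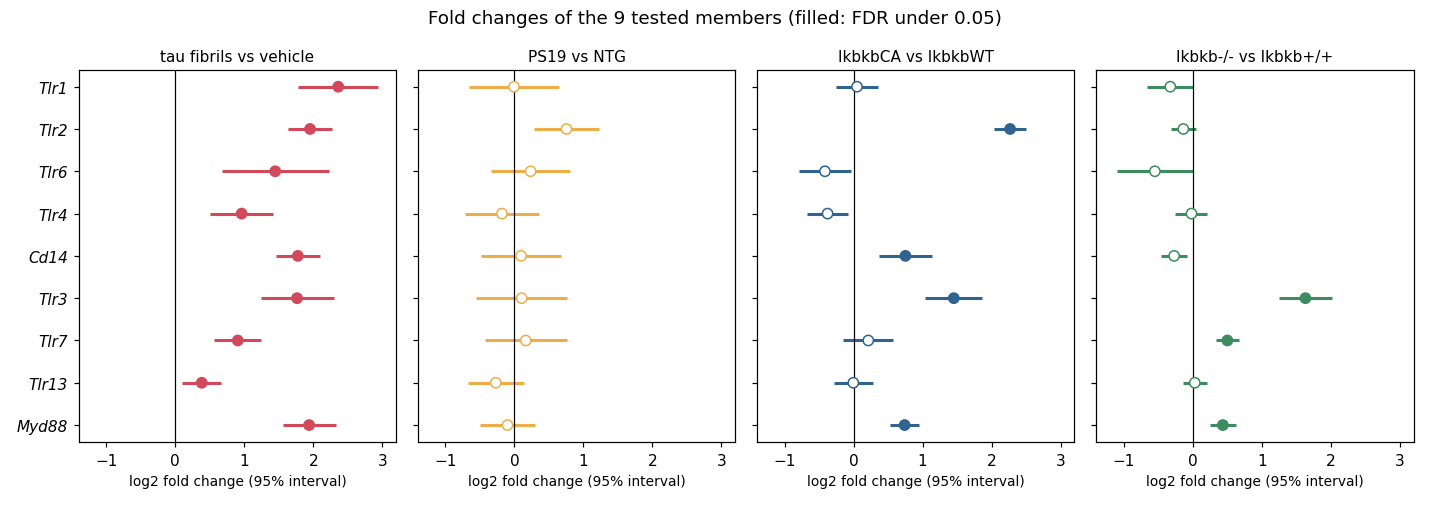
Log2 fold changes (horizontal axis) of the 9 tested genes (vertical axis) in the 4 comparisons, with 95% intervals as lines and filled points where the adjusted p was under 0.05 (edgeR quasi-likelihood test). Called genes number 9 with tau fibrils, 0 in PS19, 4 with IkbkbCA and 3 without Ikbkb.

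In microglia of PS19 mice none of the 9 genes tested was called, and 0.0707% of the 11323 genes tested were called in all, 8 higher and 0 lower, while 977 had an unadjusted p under 0.05. Tlr2 was the only one of the 9 with an unadjusted p under 0.05 and the only one whose groups did not overlap, as they did not in 5.9% of all genes tested. Its level was 96.5, 88.9, 114 and 93.7 CPM in NTG and 159.6, 124, 245 and 149 CPM in PS19. The log2 fold change was 0.75 (SE 0.22, unadjusted p = 0.00473, adjusted p = 0.351, edgeR quasi-likelihood test), with a 95% interval of 0.28 to 1.23. Leaving out each library gave 0.53 to 0.90. The authors, using edgeR and limma, reported Tlr2 among the genes higher in PS19 microglia at an adjusted p under 0.05. They reported many more genes higher in this comparison than the 8 called here, so the mismatch is not particular to Tlr2. The other 8 genes lay between -0.27 (Tlr13) and 0.23 (Tlr6), and the widest of their intervals, for Tlr3, ran from -0.56 to 0.77. DESeq2 and limma-voom called 0 of these genes as well.

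The spread between mice was wide for several of the genes. Cd14 lay at 225, 283, 267 and 214 CPM in NTG and at 278, 134, 382 and 285 CPM in PS19, with PS19 mice both below and above all NTG mice. Tlr7 was at 98.1, 163, 114 and 90.1 CPM in NTG and 101, 84.6, 188 and 160.2 CPM in PS19, and Tlr3 at 52.6, 98.6, 65.4 and 73.9 CPM and 40.5, 62.0, 107 and 111 CPM. In Tlr3, Tlr4, Tlr6, Tlr7 and Cd14, PS19 libraries 3 and 4 stood above PS19 libraries 1 and 2. Tlr4 was at 57.7 to 79.3 CPM in NTG and 39.7 to 79.0 CPM in PS19, Tlr6 at 27.1 to 39.7 and 25.6 to 61.2 CPM, Tlr1 at 15.0 to 35.6 and 16.99 to 30.4 CPM, and Tlr13 at 150.2 to 247 and 155 to 184 CPM. Myd88 was at 59.1 to 84.7 CPM in NTG and 63.2 to 81.0 CPM in PS19. The markers of monocytes and granulocytes, cells that also carry CD11b, summed to 1699 to 2387 CPM in NTG and to 531 to 2792 CPM in PS19, with 0 of 10 called. Their part in these values was not tested.

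With constitutively active IKKβ, 4 of the 9 genes tested were higher and none was lower, against 7.31% of the 11697 genes tested that were called higher, 7.16% called lower and 14.5% called in either direction. In these 4 (Tlr2, Tlr3, Cd14 and Myd88) the groups did not overlap, as in 12.3% of all genes tested. Tlr2 lay at 97.5, 104, 97.0, 95.8 and 119 CPM in IkbkbWT and 561, 527, 422, 554 and 459.5 CPM in IkbkbCA. Its log2 fold change of 2.27 (SE 0.11, adjusted p = 3.21e-07, edgeR quasi-likelihood test) was called under every alternative run, with values of 2.21 to 2.35. Neither partner of TLR2 was called. Tlr1 was at 18.3, 18.04, 18.6, 17.2 and 15.7 CPM in IkbkbWT and 16.5, 14.1, 23.5, 19.9 and 18.4 CPM in IkbkbCA, a difference of 0.049 (95% interval -0.25 to 0.35, adjusted p = 0.871). Tlr6 was at 12.1, 14.03, 11.0, 9.30 and 8.13 CPM and 8.76, 7.44, 6.80, 9.72 and 8.58 CPM, with a log2 fold change of -0.42 (SE 0.18, adjusted p = 0.147). Tlr4 had 40.8, 34.1, 30.1, 33.4 and 34.4 CPM in IkbkbWT and 22.2, 27.5, 21.5, 31.9 and 32.4 CPM in IkbkbCA. Its log2 fold change of -0.38 (SE 0.14, adjusted p = 0.0886) missed the threshold and was called with the 3 sets of libraries as a covariate (adjusted p = 0.0206) and in a fit of all 18 Ikbkb libraries (0.0405). Cd14 was at 292, 250.4, 303, 239.7 and 197 CPM and 420.0, 469, 641, 341 and 330.1 CPM, with a log2 fold change of 0.75 (SE 0.18, adjusted p = 0.0137). That call was lost when counts were summed within the 3 sets (0.81, adjusted p = 0.153) and without IkbkbWT libraries 4 and 5 (0.63, adjusted p = 0.0953).

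Tlr3 was at 12.5, 11.4, 11.2, 6.15 and 7.47 CPM in IkbkbWT and 29.2, 28.4, 22.4, 30.8 and 23.5 CPM in IkbkbCA, with a log2 fold change of 1.45 (SE 0.19, adjusted p = 0.000352, edgeR quasi-likelihood test). The lowest IkbkbCA library, at 22.4 CPM, lay above the highest IkbkbWT library, at 12.5 CPM. Tlr7 was at 79.7, 81.4, 58.8, 76.9 and 66.6 CPM and 102, 90.3, 51.7, 97.7 and 86.1 CPM, and IkbkbCA library 3 was the lowest of all 10. The log2 fold change was 0.21 (SE 0.17, adjusted p = 0.474), and without that library it was 0.37 and called (adjusted p = 0.0408). Tlr13 was at 103 to 149.8 CPM and 103 to 151 CPM, with a difference of -0.0042 and a 95% interval of -0.29 to 0.28. Tlr9 had 0 to 4 counts in IkbkbWT and 0 to 5 counts in IkbkbCA. Myd88 lay at 44.2, 46.5, 43.3, 36.4 and 35.6 CPM and 78.5, 70.0, 75.0, 59.8 and 66.5 CPM, a log2 fold change of 0.74 (SE 0.098, adjusted p = 0.000383) that was called under every alternative. With total-count scaling the median of all genes tested was -0.11, and the same 4 genes were higher.

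Other markers moved in this comparison as well. Microglial markers summed to 11013 to 15754 CPM in IkbkbWT and 13905 to 22438 CPM in IkbkbCA, with 3 of 10 called higher and 1 lower, and 4 of 7 markers of border-associated macrophages were lower and 1 higher. Oligodendrocyte markers reached 5240 CPM in IkbkbWT library 3 and 2067 CPM in IkbkbCA library 3, beside 500.3 to 1261 CPM in the other 8 libraries. Markers of monocytes and granulocytes summed to 149 to 192 CPM in IkbkbWT, to 125 and 136 CPM in IkbkbCA libraries 1 and 2, and to 453, 427 and 339 CPM in IkbkbCA libraries 3, 4 and 5, with 1 of 3 tested called higher and 0 lower. Of the 5 IkbkbCA libraries, library 3 had the least Tlr2 and the most Cd14. The part of these cells in the Cd14 values was not tested. Ddx3y was at 141 to 172 CPM in IkbkbWT libraries 1 to 3, 1.10 and 1.98 CPM in libraries 4 and 5, and 48.9 to 84.1 CPM in IkbkbCA.

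Without Ikbkb, 3 of the 9 genes tested were higher, and none was called lower, against 7.64% of the 11242 genes tested that were called higher, 6.96% lower and 14.6% in either direction. They were Tlr3, Tlr7 and Myd88, and with Cd14 they were the 4 genes whose groups did not overlap, as in 17.9% of all genes tested. Tlr2 was at 129, 116, 116 and 118 CPM in Ikbkb+/+ and 104, 101, 123 and 105 CPM in Ikbkb-/-, with a log2 fold change of -0.14 (95% interval -0.32 to 0.046, adjusted p = 0.341, edgeR quasi-likelihood test). Cd14 was at 256, 259.8, 281 and 284 CPM in Ikbkb+/+ and 238, 253, 214 and 191 CPM in Ikbkb-/-. Every Ikbkb-/- library lay below every control, and the log2 fold change of -0.27 (SE 0.090) stood at an adjusted p of 0.0512, which DESeq2 (0.0397), limma-voom (0.0405) and 5 other alternatives moved under the threshold. In the other 9 of the 16 alternatives the adjusted p stayed above it, at up to 0.822. Over all 16 the log2 values ran from -0.34 to -0.19. Tlr1 was at 16.2 to 20.9 CPM and 11.8 to 17.1 CPM, and its log2 fold change was -0.33 (adjusted p = 0.199). Tlr6 was at 21.5, 16.6, 10.3 and 10.5 CPM and 10.4, 12.4, 9.91 and 6.19 CPM, and its value of -0.55 (SE 0.26, adjusted p = 0.184) came with 2 of the 4 controls above every Ikbkb-/- library and 2 within their range. Tlr4 was at 34.0 to 44.5 CPM and 36.8 to 43.6 CPM, with a difference of -0.019 and a 95% interval of -0.25 to 0.21.

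Tlr3 was at 16.5, 13.3, 10.5 and 10.5 CPM in Ikbkb+/+ and 24.0, 36.8, 42.4 and 44.0 CPM in Ikbkb-/-. This was the largest change of the 9 genes in this comparison, 1.63 on the log2 scale (SE 0.18, adjusted p = 3.23e-06, edgeR quasi-likelihood test). Tlr7 was at 89.8, 81.3, 86.9 and 90.2 CPM and 121, 130.3, 119 and 121 CPM, with little spread within either group and a log2 fold change of 0.50 (SE 0.079, adjusted p = 0.000209). In a fit of all 18 Ikbkb libraries its adjusted p was 0.0505. Tlr13, the other X-linked gene of the 10, was at 119.8 to 138 CPM and 120.2 to 144 CPM, with a difference of 0.029 and a 95% interval of -0.15 to 0.21. Tlr9 had 0 to 4 counts per library in both groups. Myd88 was at 50.6, 51.2, 47.2 and 50.1 CPM and 68.9, 64.4, 63.1 and 72.1 CPM, with a log2 fold change of 0.44 (SE 0.091, adjusted p = 0.00261) that missed the threshold once counts were summed within pairs of libraries (adjusted p = 0.0584). With the level of Ddx3y as a covariate, in which the groups do not overlap, none of the 3 genes was called (share of all genes called not given). Tlr7 was then at 0.48 (adjusted p = 0.415), Tlr3 at 0.73 (0.627) and Myd88 at 0.24 (0.770), and Tlr6 was called lower (-2.60, 0.0116). Microglial markers summed to 14627 to 17398 CPM in Ikbkb+/+ and 15686 to 18205 CPM in Ikbkb-/-, with 2 of 10 higher and 4 lower, and 6 of 10 oligodendrocyte markers were higher. Markers of border-associated macrophages summed to 1974 to 2332 CPM in Ikbkb+/+ and 990.3 to 1434 CPM in Ikbkb-/-, with 6 of 7 lower and 1 higher, and 3 of 4 monocyte and granulocyte markers were lower. Their part in the lower Cd14 values was not tested.

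The changes with active and with deleted Ikbkb were then compared in a fit of their 18 libraries, in which 3.12% of the 12352 genes tested differed between the effects, 2.23% of the genes tested with the larger value for IkbkbCA. Tlr2 and Cd14 were the 2 of 9 genes that did. The IkbkbCA effect on Tlr2 exceeded the Ikbkb-/- effect by 2.42 on the log2 scale (SE 0.14, adjusted p = 4.59e-09, edgeR quasi-likelihood test). For Cd14 the difference was 1.04 (SE 0.23, adjusted p = 0.0135). Tlr3 was higher in both genotypes, and its effects differed by -0.12 with a 95% interval of -0.73 to 0.49. Myd88 was also higher in both, with a difference of 0.32 (95% interval 0.043 to 0.60, adjusted p = 0.242). The Tlr7 effects, of which only that of Ikbkb-/- was called, differed by -0.27 (95% interval -0.69 to 0.15, adjusted p = 0.563), so they are not shown to differ.

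Set against the IkbkbCA effect, the effect of tau fibrils was larger for 5 of the 9 genes, where 9.42% of the 12841 genes tested differed in either direction. The differences were 2.24 for Tlr1 (SE 0.26, adjusted p = 8.71e-06), 1.82 for Tlr6 (SE 0.51, adjusted p = 0.0265), 1.26 for Tlr4 (SE 0.25, adjusted p = 0.00242), 1.12 for Myd88 (SE 0.19, adjusted p = 0.000692) and 0.95 for Cd14 (SE 0.26, adjusted p = 0.0265). Tlr2 was the one gene with a larger point estimate in IkbkbCA, by -0.39 (SE 0.18, adjusted p = 0.196), and Tlr3 differed by 0.23 (95% interval -0.51 to 0.97). Without fibril library 3 or vehicle library 3, the calls of Tlr6 (adjusted p = 0.0519 and 0.0573) and Cd14 (0.0520 and 0.0578) were lost, as they were for Tlr6 without fibril library 2 (0.0584) and for Cd14 without IkbkbCA library 4 (0.0501). Against the PS19 effect, where 8.07% of the 11852 genes tested differed, 3.65% with the lower value for fibrils, the fibril effect was larger for Tlr1, Myd88, Cd14, Tlr3 and Tlr2, by 2.29, 1.95, 1.60, 1.56 and 1.11. Their adjusted p lay between 1.54e-05 for Myd88 and 0.0318 for Tlr3, and that of Tlr3 rose to 0.0547 to 0.0891 without vehicle library 1, 2 or 4 or without NTG library 2. These 2 experiments differ in the age of the cells and in culture as well as in the source of tau. The median log2 fold change of the microglial markers tested was 1.08 with fibrils, 0.11 with IkbkbCA and -0.20 in PS19. Cx3cr1, one of these markers, differed by 1.57 (SE 0.17) between fibrils and IkbkbCA, whose cells carry a replaced Cx3cr1 allele. Between fibrils and PS19 Cx3cr1 differed by 1.03 (SE 0.26). The part of this marker shift in the differences above was not tested.

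**Figure D3:**
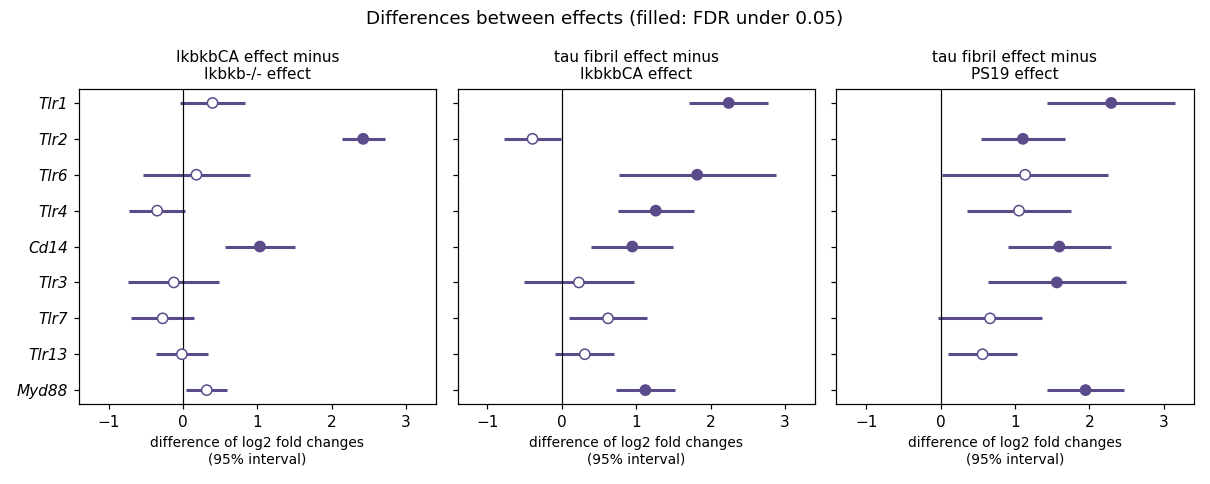
Differences between the log2 fold changes of pairs of comparisons (horizontal axis) for the 9 tested genes (vertical axis), with 95% intervals as lines and filled points where the adjusted p was under 0.05 (edgeR quasi-likelihood test). Tlr2 and Cd14 are the filled points between IkbkbCA and Ikbkb-/-, at 2.42 and 1.04.

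Across the 8 groups, vehicle cultures had the lowest mean of every gene except Tlr3, although Tlr9 had at most 8 counts in any library. For Tlr1, Tlr2, Tlr4, Tlr7, Tlr13, Cd14 and Myd88 no vehicle library reached the lowest library of the group next by mean. Further groups could overlap, as Tlr7 lay at 52.9 CPM in vehicle library 2 and 51.7 CPM in IkbkbCA library 3. Cd14 lay at 135 CPM in vehicle library 1 and 134 CPM in PS19 library 2. Vehicle cultures also had the lowest sums of microglial markers, 4515 to 5830 CPM against at least 10556 CPM in every other group. For Tlr3 the means of IkbkbWT, vehicle and Ikbkb+/+ were 9.73, 11.8 and 12.7 CPM and their libraries overlapped, and IkbkbCA, Ikbkb-/- and fibril cultures followed at 26.9, 36.8 and 39.9 CPM. NTG and PS19 microglia had the highest means, 72.6 and 80.1 CPM. Tlr2 had its highest mean in IkbkbCA (505 ± 61.2 CPM, SD, n = 5), above PS19 (169 ± 52.5 CPM, n = 4), and no library of these 2 groups overlapped. Cd14 had its 2 highest means in IkbkbCA (440.1 ± 126 CPM, n = 5) and with fibrils (408 ± 100.04 CPM, n = 4), and these overlapped. Myd88 means were 67.1 to 75.5 CPM in NTG, PS19, IkbkbCA, fibril and Ikbkb-/- libraries, with neighbours in this order overlapping, and 49.8, 41.2 and 18.1 CPM in Ikbkb+/+, IkbkbWT and vehicle. Tlr6 and Tlr4 were highest in the adult microglia, at means of 36.0 and 65.1 CPM in NTG and 43.1 and 58.7 CPM in PS19. Differences in level between the comparisons are given without a test.

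Genes most like Tlr2, Tlr3 and Cd14 were sought among 8409 genes over the 34 libraries, after log2 CPM was centred within each experiment. Nearest to Tlr2 were Cxcl16 (Pearson's r = 0.96), Arl5c (0.94) and Gpr84 (0.94). Nearest to Tlr3 were Ctss (0.92), which encodes the lysosomal protease cathepsin S, Tor3a (0.91) and Dtx3l (0.90). Nearest to Cd14 were Slc11a1 (0.90), M6pr (0.89) and Aoah (0.88), the last an enzyme that inactivates lipopolysaccharide. Between pairs of the 9 genes r ran from 0.14 for Tlr2 and Tlr4 to 0.83 for Cd14 and Myd88. The libraries share treatments, so these values describe the groups as much as the single libraries.

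**Figure D4:**
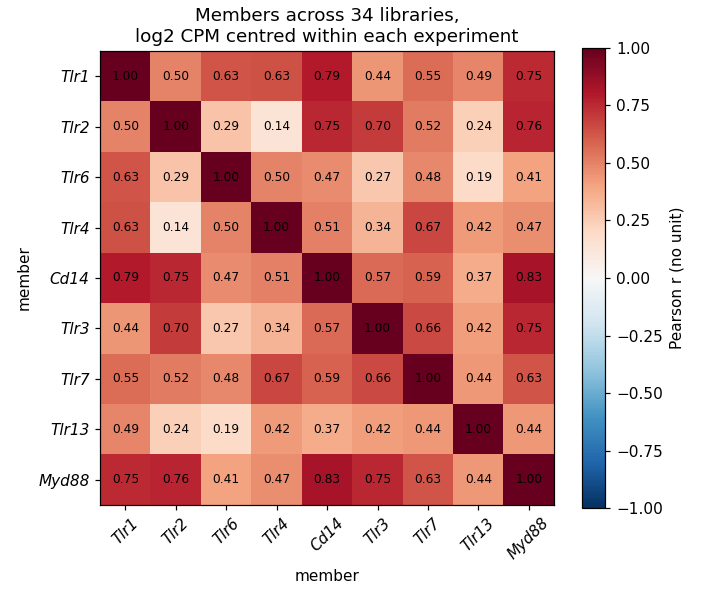
Pearson's r (color and number, no unit) between pairs of the 9 tested genes across 34 libraries, on log2 CPM centred within each of the 4 experiments. Myd88 has 0.83 with Cd14 and 0.76 with Tlr2, while Tlr2 and Tlr4 have 0.14.

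The rest of the Toll-like receptor pathway was read from 103 other genes in 7 roles, of which 102 were in the tables. With tau fibrils 49 of 85 tested genes were higher and 2 lower, beside 14.5% higher and 15.4% lower over all genes tested. Their median log2 fold change was 0.68, beside -0.011 over all genes tested and 1.08 over the 9 tested microglial markers. More microglia and more of a transcript per cell cannot be told apart here either. Unc93b1, which carries the nucleic acid-sensing receptors to endosomes, had a log2 fold change of 2.02 (SE 0.14), the endosomal nuclease Pld4 of 2.22 (SE 0.21) and the ribonuclease Rnaset2a of 1.64 (SE 0.24), and 9 of the 15 genes of trafficking and processing were higher and none lower. Of 5 tested genes that help to deliver ligands 2 were higher, Cd180 at 1.29 (SE 0.15) and its partner Ly86 at 0.65 (SE 0.19), and Ly96, the MD-2 subunit of the TLR4 complex, was at 0.72 (SE 0.31) and not called. Among adaptors and kinases 9 of 22 were higher and none lower, with Pik3ap1 at 2.67 (SE 0.26), Ikbke at 2.44 (SE 0.29) and Map3k8 at 1.62 (SE 0.37). Ticam1, the gene of TRIF, was at 0.23 (SE 0.27) and not called. Of 12 transcription factors 8 were higher and 1 lower, with Irf7, the interferon regulatory factor that acts downstream of TLR7 and TLR9, at 6.32 (SE 0.19), Nfkb2 at 2.30 (SE 0.21) and Relb at 1.62 (SE 0.24). Of 18 tested genes listed as inhibitors 10 were higher and 1 lower. Among the higher ones were Tnip3 at 3.25 (SE 0.29), Tnfaip3 (A20) at 2.22 (SE 0.42) and Irak3 at 1.35 (SE 0.28). Nfkbiz, listed with them although its product is not only an inhibitor, was higher at 1.82 (SE 0.22). Of 12 tested target genes 11 were higher, led by the chemokine Ccl5 at 6.29 (SE 0.20), the acute-phase protein gene Saa3 at 5.16 (SE 0.19) and the interferon-induced Isg15 at 5.06 (SE 0.22).

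The PS19 comparison called 0 of 94 pathway genes. DESeq2 called 11 higher, and the share of all genes that it called is not given here. Of the 94, 24 had an unadjusted p under 0.05 (edgeR quasi-likelihood test), beside 977 of all 11323 genes tested. Of its 17 tested target genes 10 had groups that did not overlap, beside 5.9% of all genes tested. The median log2 fold change of the 17 was 1.07, beside 0.0042 over all genes tested. Unc93b1 was at 0.23 (SE 0.26), Ly96 at -0.20 (SE 0.24), Ticam1 at -0.16 (SE 0.24), Irak3 at -0.29 (SE 0.45) and Tnfaip3 at 0.65 (SE 0.44).

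With IkbkbCA 29 of 92 tested pathway genes were higher and 7 lower, beside 7.31% higher and 7.16% lower over all genes tested. Among ligand delivery genes the scavenger receptor Cd36 was lower at -1.76 (SE 0.19), Hmgb1 lower at -0.57 (SE 0.15) and Trem1 higher at 1.60 (SE 0.32). Ctss at 0.84 (SE 0.15) and Rnaset2a at 0.43 (SE 0.11) were higher and Hsp90b1, the chaperone that folds the receptors, lower at -0.36 (SE 0.081), while Unc93b1 was at 0.33 (SE 0.11) and not called. Ikbke at 1.79 (SE 0.16), Traf3 at 1.02 (SE 0.11) and Irak2 at 0.75 (SE 0.13) led the kinases and adaptors, and Irf7 at 4.20 (SE 0.38), Relb at 1.72 (SE 0.10) and Nfkb2 at 1.28 (SE 0.13) the transcription factors. Of 21 genes listed as inhibitors 8 were higher and none lower, with Tnip3 at 5.27 (SE 0.57), Nfkbie at 2.37 (SE 0.22) and Tnip1 at 1.60 (SE 0.15). Of 14 target genes 8 were higher and 1 lower, with Saa3 at 6.89 (SE 1.12), Acod1 at 6.21 (SE 0.24) and Ccl5 at 4.42 (SE 0.49). Ly96 was at 0.21 (SE 0.16), Ticam1 at -0.14 (SE 0.18) and Irak3 at 0.61 (SE 0.24), none of them called.

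Without Ikbkb 13 of 90 tested pathway genes were higher and 20 lower, Ikbkb itself among the latter. Over all genes tested 7.64% were higher and 6.96% lower. Cd36 was lower at -1.54 (SE 0.22) and Lbp at -1.22 (SE 0.25), and Trem1 higher at 1.03 (SE 0.22). Hsp90b1 was lower at -0.49 (SE 0.077), Ctss higher at 0.41 (SE 0.11) and Pld4 higher at 0.28 (SE 0.089), and Pik3ap1 at 0.87 (SE 0.19) and Irak2 at 0.35 (SE 0.11) were higher among adaptors and kinases. Irf7 was higher at 5.07 (SE 0.20), with the immediate early factors Fos at -1.21 (SE 0.15) and Jun at -0.71 (SE 0.12) lower. Of 19 genes listed as inhibitors 6 were lower and 1 higher, with Dusp1 at -1.703 (SE 0.27), Nfkbia at -1.60 (SE 0.27) and Socs1 at 1.702 (SE 0.31). Of 14 target genes 6 were lower and 3 higher, the 3 being Ifit1 at 4.14 (SE 0.16), Isg15 at 3.94 (SE 0.13) and Ccl5 at 3.55 (SE 0.27). Unc93b1 at 0.24 (SE 0.082), Ly96 at -0.054 (SE 0.20), Ticam1 at 0.033 (SE 0.14) and Irak3 at -0.13 (SE 0.25) were not called.

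Of 90 pathway genes tested in both genotypes, 9 were higher in both, 3 lower in both, 5 higher with IkbkbCA and lower without Ikbkb, and 0 the other way round. Of the 11137 genes tested in both, 2.98% were higher in both, 2.18% lower in both, 0.332% higher with IkbkbCA and lower without Ikbkb, and 0.0449% the other way round. The 9 were Irf7, Irf5, Ifit1, Ccl5, Isg15, Socs1, Ctss, Trem1 and Irak2, and Tlr3 and Myd88 were called higher in both as well. The 5 were Nfkbia, which encodes the inhibitor IκBα, Nfkb1, Nfkbiz, Tnfaip3 and Cxcl2. Nfkbia was at 1.38 (SE 0.13) with IkbkbCA, and Tnfaip3 at 1.35 (SE 0.24) with IkbkbCA and -1.56 (SE 0.27) without Ikbkb. None of the 10 genes was called in this opposite way, and Cd14 had the same signs, 0.75 and -0.27, with the second value short of the threshold. Of the 4 other receptors of the family, Tlr12 was at 59.8 to 104 CPM in NTG and 55.1 to 145 CPM in PS19, against 0 to 12.9 CPM in the 26 culture libraries. Tlr8 was at 0.546 to 9.59 CPM in the culture libraries and had at most 4 counts in any adult library, Tlr5 had at most 28 counts in any library and Tlr11 at most 9.

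**Figure D5:**
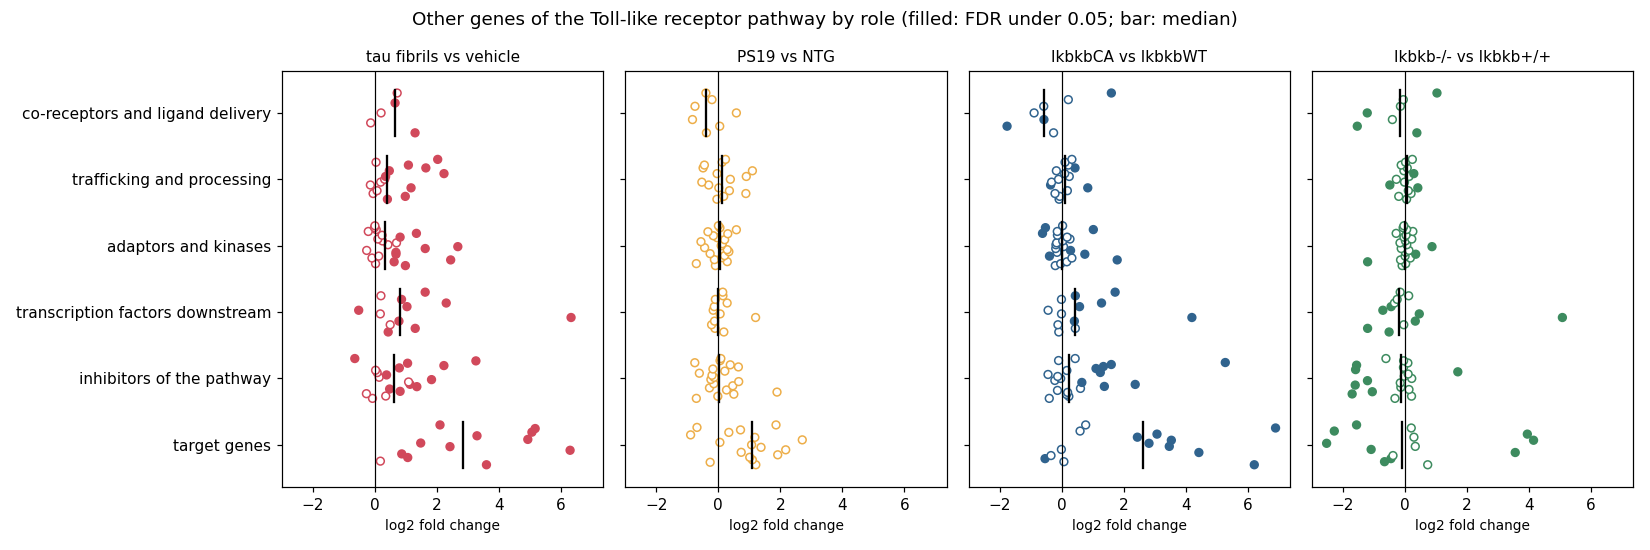
Log2 fold changes (horizontal axis) of the other pathway genes tested, 1 point per gene, by role (vertical axis) in the 4 comparisons, with the median of each role as a bar and filled points where the adjusted p was under 0.05 (edgeR quasi-likelihood test). Target genes had medians of 2.85 with tau fibrils, 1.07 in PS19, 2.63 with IkbkbCA and -0.093 without Ikbkb.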

How the data were processed

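The authors sequenced QuantSeq 3′ mRNA libraries, mapped the reads on the BlueBee platform with the Lexogen QuantSeq pipeline to GRCm38 with GENCODE annotation, and deposited 1 table of whole-number counts per library, not normalized. The methods name RSEM, and the submitters' processing notes name STAR, RSEM, edgeR and limma, while the tables end with 5 lines for reads not assigned to a gene, as other counters write them. Those lines were left out. Whether counting used strand is not given in the sources used here. Reads outside genes were 12.4% to 38.3% and ambiguous reads 0.409% to 0.708% of uniquely mapped reads. Symbols and positions came from GENCODE M21 (47224 of 47643 identifiers). The 24 cortex samples of the 58 in the series were not analysed here.

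Each comparison was fitted on its own libraries with R 4.3.3 and edgeR 4.0.16 (TMM, filterByExpr with a minimum count of 10 and total of 15, quasi-likelihood test, Benjamini-Hochberg adjusted p under 0.05 over all genes tested). Differences of effects were fitted over the libraries of both experiments. The SE was the log2 fold change divided by the square root of F. Printed CPM used TMM factors over all 34 libraries, whereas fold changes came from each comparison's own fit. Limits for 0 counts used 3 counts per library over the library total, without TMM factors, and cover counting error only. The 95% intervals of fold changes come from the fit and include the spread between libraries. Nothing states which libraries came from separate cultures, so p-values measure the spread between libraries, which may be technical.

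The 10 genes, the pathway and marker lists and the tests were chosen with earlier results of these data known. All 10 genes are named. Pathway genes named are up to 3 per role and comparison with the largest absolute log2 fold change among those called with a mean count of at least 10 in the higher group, with 9 further genes given whatever their test (Tlr5, Tlr8, Tlr11, Tlr12, Ly96, Unc93b1, Ticam1, Irak3, Tnfaip3). The genes called in both genotypes were named after their values were seen. Likeness was Pearson's r on log2(CPM + 2), centred within experiments, for genes with a mean of at least 10 CPM, and is not reported here for Tlr7. Motifs were searched on both strands. Alternatives were RLE size factors, total-count scaling, DESeq2 1.42.0, limma-voom (limma 3.58.1), no filter, covariates (age, share of reads outside genes, Ddx3y), 1 fit of 18 libraries and leaving out each library. Chosen after seeing the data were the 3 sets as a covariate or summed, the IkbkbCA comparison omitting IkbkbWT libraries 4 and 5, and sums within pairs.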

Additional observations from a re-analysis of the deposited data

Results flagged for a closer look

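In 4 of the 77 groups of values checked, 1 library stood apart from the rest of its group, measured by its gap to the nearest other library over the range of the group. Chance alone gives about 1 in 20 such groups. They were Tlr3 in vehicle library 3 (21.2 CPM, group median 9.29 CPM), Tlr6 in NTG library 3 (27.1 CPM, median 38.6 CPM), Tlr7 in fibril library 4 (96.6 CPM, median 77.6 CPM) and Tlr7 in Ikbkb-/- library 2 (130.3 CPM, median 120.8 CPM).

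The effects of 2 comparisons differed, by the edgeR test of the difference itself, in 12 cases. Between IkbkbCA and Ikbkb-/- the log2 difference was 2.42 for Tlr2 and 1.04 for Cd14. Between tau fibrils and IkbkbCA it was 2.24 for Tlr1, 1.82 for Tlr6, 1.26 for Tlr4, 1.12 for Myd88 and 0.95 for Cd14. Between tau fibrils and PS19 it was 2.29 for Tlr1, 1.95 for Myd88, 1.60 for Cd14, 1.56 for Tlr3 and 1.11 for Tlr2. Microglial markers also rose more with fibrils than with IkbkbCA or in PS19, by their medians, and their part was not tested.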

How the results depend on the processing

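No paired analysis was possible because the replicate numbers follow accession order and the labels pair no libraries across groups. The 3 sets of IkbkbCA libraries, seen in the data and not in the labels, were used as a covariate in 1 fit. Over the 63 log2 values of the 9 tested genes, 1099 alternative values kept their direction and side of the threshold, 30 lost the call, 23 gained one and 45 changed sign (24 of these with 1 library left out), none of the latter with an adjusted p under 0.05. Tlr9 gave no value at this depth, and the 8 to 10 libraries per comparison limit the precision of the rest. The causes of these shifts were not tested.

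With a covariate for reads outside genes, 5 of the 10 genes (9 without it) and 29 pathway genes (51) were called with tau fibrils, and 1 pathway gene (0) in PS19. In PS19, DESeq2 called 11 pathway genes, no filter gave 13 and leaving out 1 library 0 to 6, with 6 when PS19 library 2 was left out. In IkbkbCA, sums within 3 sets called 16 pathway genes (36), 15 of them higher, beside 29 of 36. Without Ikbkb, no filter called 5 of the 10 genes (3), 3 higher and 2 lower, and Ddx3y as a covariate 1 of them and 14 pathway genes (33), 3 higher and 11 lower, while 1 fit of 18 libraries called 21, 6 higher and 15 lower. For tau fibrils against IkbkbCA, leaving out 1 library gave 3 to 5 genes (5), with 3 without fibril library 3 or vehicle library 3. The share of all genes called under these alternatives is not given here. Whether these counts moved apart from the rest of the genes is therefore not shown.

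In PS19, Tlr1 (-0.0066) was at 0.0026 with RLE, 0.033 with total-count scaling, 0.0030 with DESeq2, 0.036 without a filter and 0.31 with age as a covariate, and at -0.15 to 0.29 with 1 library left out. Tlr3 (0.10), Tlr7 (0.16) and Cd14 (0.095) were at -0.083, -0.10 and -0.27 with the covariate for reads outside genes, Cd14 was at -0.0019 with limma-voom, and leaving out 1 library gave -0.094 to 0.32, -0.042 to 0.40 and -0.11 to 0.34. In IkbkbCA, Tlr1 (0.049) was at -0.0081 with total-count scaling and at -0.026 to 0.13 with 1 library left out. Tlr13 there (-0.0042) was at 0.025 with RLE and with DESeq2, 0.014 without a filter, 0.010 in 1 fit of 18 libraries, 0.021 with sums within 3 sets and -0.062 to 0.088 with 1 library left out. Without Ikbkb, Tlr4 (-0.019) was at 0.043 with Ddx3y as a covariate, 0.0059 with sums within pairs and -0.099 to 0.025 with 1 library left out, and Tlr13 (0.029) was at -0.0020 with total-count scaling, -0.13 with Ddx3y and -0.028 to 0.059. For the difference between IkbkbCA and Ikbkb-/-, Tlr13 (-0.013) was at 0.00052 with RLE, 0.0060 without a filter and -0.081 to 0.052 with 1 library left out, and Tlr6 (0.18) was at -0.035 to 0.36.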
